A study of Mus musculus with 10 samples.

Results

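The subject here is the set of transcripts that encode the machinery of mRNA decay itself, followed through an actinomycin D chase of 32Dcl3 mouse myeloblasts. The members are the genes whose symbol on the array platform marks a Ccr4-Not subunit (Cnot), Pan2 or Pan3, a poly(A)-binding protein (Pabpc, Pabpn), a decapping or 5′-to-3′ decay factor (Dcp, Dcps, Edc, Xrn), an exosome subunit (Exosc), the exosome cofactor Mphosph6, or a factor of nonsense-mediated decay (Upf, Smg). They came to 32 of the 12394 genes named on the array, measured by 65 probe sets. Each gene is described by its probe set with the highest mean over the 10 arrays. Of the 32 genes, 30 had a mean intensity of at least 50 and entered the tests. Smg6 (mean intensity 19.2, arrays between 11.5 and 25.4) and Pabpc2 (29.9, arrays between 11.3 and 45.8) did not. Dcp2, Cnot1, Pan3, Edc3 and Upf3b were not analysed here.

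32Dcl3 is a clonal myeloblast line that needs interleukin-3 (IL-3) to grow. In each of 2 experiments, cells washed free of IL-3 received actinomycin D at 10 µg/ml to block transcription, and the single culture was then divided: 1 sample was the 0 h sample, and the others were given IL-3 at a high dose (1 ng/ml) or at a low dose (0.01 ng/ml), for collection after 2 h and 4 h. That gives 5 groups of 2 arrays each, all of cells exposed to actinomycin D by the study's methods, although the sample labels disagree on whether the 0 h cells were taken before or after the drug. No 2 h or 4 h sample was without IL-3, so the low dose is the comparison for the high dose. The p-values rest on how far changes differ between the 2 divided cultures, once a constant shift between experiments is removed. Only 2 cultures stand behind them.

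In the cytoplasm most mRNAs lose their poly(A) tail first, through the Pan2-Pan3 and Ccr4-Not deadenylases, while poly(A)-binding proteins coat what remains of the tail. The body of the transcript is then removed either from its 5′ end, after Dcp1-Dcp2 has taken off the cap and Xrn1 digests the exposed end, or from its 3′ end by the exosome, a ring of Exosc subunits with attached nucleases. Nonsense-mediated decay is a surveillance route in which Upf and Smg proteins direct transcripts with an early stop codon into the same machinery.

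The values are array intensities on a linear scale. Array medians ran from 48.8 to 70.6, between 11280 and 12155 probe sets were at 50 or more on an array, and the 2 arrays of a group correlated at Pearson's r of 0.977 to 0.987 across probe sets. Of the 8 myeloblast markers, Mpo, Prtn3, Ctsg, Myb, Cebpa and Spi1 had means of at least 50, while Elane (mean 19.6) and Kit (7.98) did not. None of the 4 measured lymphoid markers reached 50. Pf4, Itga2b, Adgre1, Csf1r, Cpa3, Mcpt8 and Fcer1a, from the lists for other blood lineages, did reach it. From the same lists, Hba-a1, Epor, Cd14, Marco and Hdc did not. Some markers differed between experiments 1 and 2 at 0 h: Mpo gave 3409 and 508.8, Mcpt8 54.5 and 188.4, and Fcer1a 25.4 and 154.8. Others were closer, such as Ctsg at 4455 and 3465. What part these markers or their differences have in the results was not tested. In bulk RNA, fewer cells of a type and less RNA per cell cannot be told apart.

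The first question was how fast these transcripts disappear once transcription is blocked. At the low dose, 15 of the 30 members fell between 0 h and 4 h, 2 rose and 13 did not pass (limma, Benjamini-Hochberg adjusted p under 0.05). The 15 are 50% of the members, against 43.6% of all 6792 genes tested in the same way, and the 2 that rose are 6.67% against 13.7% of all genes. At the high dose the counts were again 15 lower and 2 higher, against 40.6% and 9.11% of all genes. The shares of falling members were thus near those of all genes. The median log2 change of the members was -0.23 at the low dose and -0.34 at the high dose, beside -0.21 and -0.16 over all genes. Both doses share their 0 h arrays, and 14 members were lower in both. Smg8 and Upf1 passed the filter on mean intensity although a whole group of their arrays averaged below 50, and without them 14 of 28 members fell and 1 rose in each dose. A rise here is a higher array signal than at 0 h. With transcription blocked, the paper takes such values to be measurement noise, and their source was not tested here.

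The counts were uneven between roles, which was not tested. Counted at the low dose, 7 of 9 exosome members, 5 of 9 deadenylation members, 2 of 5 decapping and 5′-decay members, 1 of 4 members of nonsense-mediated decay and 0 of 3 poly(A)-binding members fell. Over all genes, 43.6% fell at the low dose and 13.7% rose. The 2 members called higher, Smg5 and the dim Upf1, both belong to nonsense-mediated decay. The median log2 change was -1.06 for the exosome, -0.59 for deadenylation, -0.22 for decapping and 5′ decay, 0.01 for poly(A) binding and 0.42 for nonsense-mediated decay. At the high dose the same medians were -0.95, -0.66, -0.26, -0.01 and 0.37. The medians for nonsense-mediated decay rest on 4 genes, among them Smg8 and Upf1, each with a group of arrays averaging below 50.

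**Figure D1:**
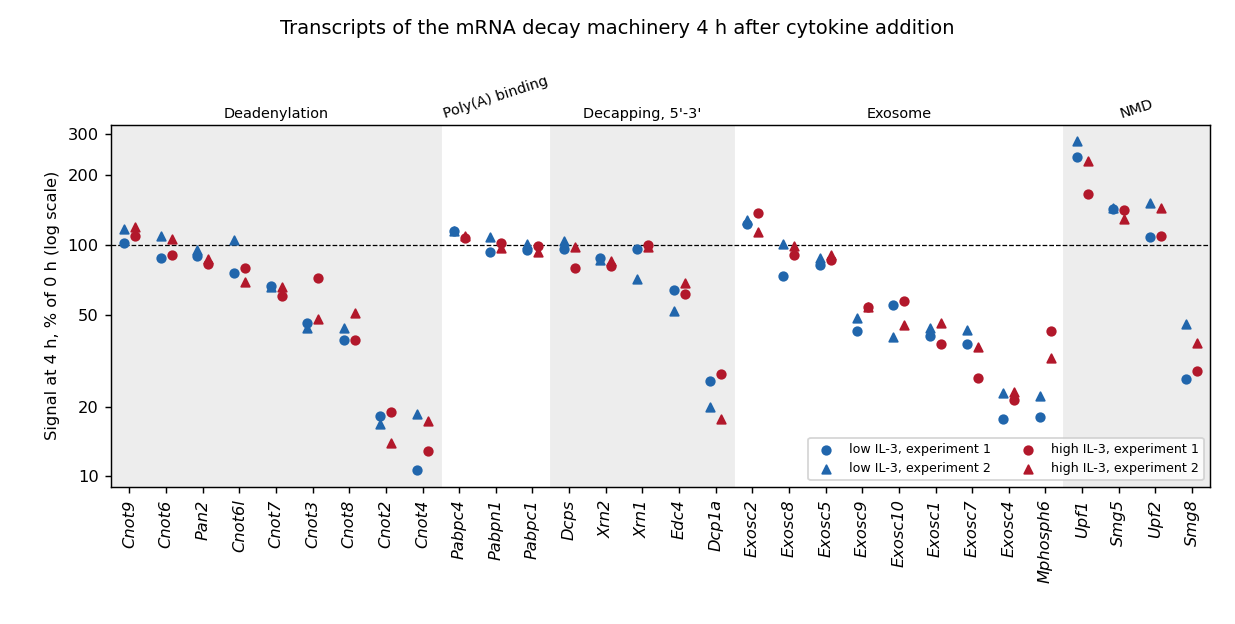
Signal of each of the 30 tested members at 4 h relative to 0 h in its own experiment, in percent (log axis), by role; blue is low IL-3, red is high IL-3, circles are experiment 1 and triangles experiment 2, and the dashed line is 100%. At the low dose Cnot4, Cnot2, Mphosph6, Exosc4 and Dcp1a lie lowest. At the high dose Mphosph6 lies above Exosc7 and Smg8 in experiment 1 and below both in experiment 2. The poly(A)-binding members lie near the line on the deposited scale, and Smg5 and Upf1 lie above it.

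Within the Ccr4-Not complex, single subunits covered a wide range. Cnot4, a ubiquitin ligase associated with the complex, gave intensities of 644 and 319 at 0 h in experiments 1 and 2. At the low dose it gave 96.7 and 57.9 at 2 h and 68.4 and 59.1 at 4 h, and at the high dose 126.6 and 64.2 at 2 h and 82.9 and 55.3 at 4 h. All later arrays lay below both 0 h arrays, and most of the loss had occurred by 2 h, when 16.6% ± 2.2 (SD, n = 2) of the 0 h signal was left at the low dose and 19.9% ± 0.31 at the high dose. The values at 2 h and 4 h approach the array medians, so the later part of the curve is close to the dim range. The log2 change to 4 h was -2.56 (SE 0.19, limma adjusted p = 2.2e-08) at the low and -2.49 (adjusted p = 3.3e-08) at the high dose, and the fitted half-lives were 1.23 h ± 0.20 and 1.28 h ± 0.10. The fit takes a single rate over both intervals, which does not describe this early loss, so these half-lives are summaries only. The values above are of the brightest probe set. The dimmest tested one fell by 0.60 at the low dose (limma adjusted p = 0.021), with 62.9% ± 23 left and half-lives of 5.72 h ± 3.5 and 4.31 h ± 0.44.

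Cnot2, a structural subunit of the complex, showed a decline that went on through both intervals. It started at 564.5 and 431, stood at 241 and 139.8 after 2 h at the low dose and at 225 and 128.4 at the high dose, and ended at 103.4 and 72.7 at the low and 107.5 and 59.9 at the high dose. The 4 h arrays of both doses lay below all 2 h arrays, with 17.6% ± 1.0 of the 0 h signal left at the low dose and 16.5% ± 3.6 at the high dose. The log2 changes were -2.31 (SE 0.16, limma adjusted p = 9.0e-09) and -2.40 (adjusted p = 6.7e-09), and the half-lives 1.56 h ± 0.11 and 1.49 h ± 0.21. These values are of the brightest probe set, of a class (_s_at) that can match transcripts of more than 1 gene. Another probe set changed by -1.415 at the low dose, with 34.5% ± 3.6 left. Its half-lives were 2.45 h ± 0.32 at the low and 2.85 h ± 0.88 at the high dose. The remaining tested ones gave -2.19 and -2.12 at the low dose. Both are of a class (_x_at) that can also match other transcripts, so their likeness to the brightest probe set may not be independent.

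Cnot3, the partner of Cnot2 in the complex, had half-lives of 3.28 h ± 0.29 at the low and 5.82 h ± 3.1 at the high dose. Its 0 h arrays differed between experiments, at 468 and 951.5. With the low dose it gave 303 and 515 at 2 h and 215 and 418 at 4 h, and at the high dose 380.4 and 622 at 2 h and 336 and 456.5 at 4 h. Within each experiment every later array was lower than the 0 h array, and both low IL-3 arrays were lower than the high IL-3 array of the same time. At 4 h 45% ± 1.4 was left at the low dose and 59.9% ± 17 at the high dose. The log2 change to 4 h was -1.11 (limma adjusted p = 9.8e-06) at the low dose and -0.75 (adjusted p = 0.00058) at the high dose. The latter was lost under scaling to a shared 75th percentile (-0.33, adjusted p = 0.06) or quantile normalization (adjusted p = 0.069), and both were lost without the block for the experiment.

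The catalytic subunits split. Cnot8, a deadenylase of the Caf1 type, fell to 41.3% ± 3.7 of 0 h at the low dose and to 44.8% ± 8.6 at the high dose, with half-lives of 3.03 h and 3.67 h. Cnot7, its close relative, fell to 66.2% ± 0.26 and 63% ± 4.1 on its brightest probe set. Cnot6, a deadenylase of the Ccr4 type, did not pass and kept 98.7% ± 16 and 97.9% ± 11.

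Cnot6l, the paralog of Cnot6, gave 1931 and 766.6 at 0 h. Low-dose arrays gave 1590 and 585.8 at 2 h and 1465 and 808 at 4 h, and at the high dose 1332 and 445 at 2 h and 1528 and 532 at 4 h. In 1 experiment the low IL-3 array at 4 h was thus above the 0 h array, and the high IL-3 arrays of both experiments stayed below it. The log2 change at the high dose was -0.42 (SE 0.14, limma adjusted p = 0.023), and it was 0.00 (adjusted p = 0.99) under scaling to a shared 75th percentile. It was also lost without either 0 h array (adjusted p = 0.067 and 0.075) or the high-dose 4 h array of experiment 2 (-0.32, adjusted p = 0.21). The low dose did not pass, with 90.6% ± 21 left, but did so without the low-dose 4 h array of experiment 2. The structural subunit Cnot9, at 109% ± 10 at the low dose, and Pan2, the nuclease of the Pan2-Pan3 pair, at 91.9% ± 3.7, did not pass in either dose.

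None of the 3 poly(A)-binding members passed in either dose on the deposited scale, and all 3 were called higher in both under scaling to a shared 75th percentile. Pabpc1, the main cytoplasmic poly(A)-binding protein, gave 8106 and 7766 at 0 h. The later arrays were 8290 and 7778 at 2 h and 7690.0 and 7840.0 at 4 h at the low dose, and 8085 and 7190.0 at 2 h and 8015 and 7249 at 4 h at the high dose. The arrays of all 5 groups overlapped in range, and 97.9% ± 4.3 was left at 4 h at the low dose and 96.1% ± 3.9 at the high dose, neither of which passed.

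Pabpn1, the nuclear poly(A)-binding protein, gave 5530.0 and 4457 at 0 h. It gave 5552 and 4798 at 2 h and 5168 and 4837 at 4 h at the low dose, and 5206 and 4156 at 2 h and 5644 and 4321 at 4 h at the high dose. Again the groups overlapped, with 101% ± 11 and 99.5% ± 3.6 left at 4 h. Pabpc4, a cytoplasmic paralog of Pabpc1, stood at 114.7% ± 0.11 at the low and 108% ± 2.1 at the high dose and did not pass. Its brightest probe set is of the class (_x_at) that can also match other transcripts.

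Among the decapping factors, Dcp1a, the activator of the decapping enzyme, had the shortest half-life, 1.58 h ± 0.24 at the low dose and 1.65 h ± 0.36 at the high dose. At 2 h 23.2% ± 7.1 was left at the low dose, and at 4 h still 22.9% ± 4.2. The log2 change at 4 h was -1.98 (SE 0.17, limma adjusted p = 9.7e-08) at the low and -2.00 (adjusted p = 9.5e-08) at the high dose. At the high dose 28.5% ± 9.0 and 22.7% ± 6.9 were left, so that most of the loss lay in the first interval, as for Cnot4. A single fitted rate does not describe this course either.

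Edc4, a scaffold for decapping proteins, gave 291.9 and 287.9 at 0 h. It gave 235 and 230.2 at 2 h and 185.5 and 149.8 at 4 h at the low dose, and 317 and 234 at 2 h and 178.8 and 196.7 at 4 h at the high dose. The 4 h arrays of both doses lay below all others. It fell by 0.74 on the log2 scale at the low dose (SE 0.16, limma adjusted p = 0.0010) and by 0.59 at the high dose (adjusted p = 0.0070). Under scaling to a shared 75th percentile these were -0.33 (adjusted p = 0.081) and -0.18 (adjusted p = 0.31), so the call depends on the scale. The call at the high dose was also lost without the 0 h array of experiment 2 (-0.52, adjusted p = 0.06) or the high-dose 4 h array of experiment 1 (-0.43, adjusted p = 0.12).

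Dcps, the scavenger enzyme that breaks down the cap left after 3′-to-5′ decay, gave 486.7 and 546.9 at 0 h. It gave 412 and 469 at 2 h and 467 and 568.7 at 4 h at the low dose, and 658.9 and 536.9 at 2 h and 388 and 537.5 at 4 h at the high dose. The 2 experiments moved in different ways at the high dose, where the highest and the lowest of the 10 arrays are both from experiment 1. Dcps did not pass in either dose, with 100% ± 5.6 left at the low and 89% ± 13 at the high dose.

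Xrn1, the cytoplasmic 5′-to-3′ exonuclease, gave dim signals of 83.6 and 75.4 at 0 h. It gave 86.8 and 57.1 at 2 h and 80.0 and 53.5 at 4 h at the low dose, and 67.2 and 45.2 at 2 h and 83.5 and 74.0 at 4 h at the high dose. The groups overlapped, and neither dose passed (83.3% ± 17 and 99% ± 1.2 left). Xrn2, its nuclear counterpart, kept 86.9% ± 0.81 at the low and 83.1% ± 2.9 at the high dose and did not pass, but passed at the high dose without either high-dose 2 h array.

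Of the 9 exosome members, 7 fell at the low dose and 6 at the high dose, where deadenylation also had 6 of 9. Over all genes, 43.6% fell at the low and 40.6% at the high dose. Mphosph6, a cofactor of the nuclear exosome, had a half-life of 1.71 h ± 0.011 at the low dose, and its arrays are given with the comparison of doses. Exosc4, a subunit of the ring, went from 399 and 196 at 0 h to 70.3 and 44.8 at 4 h at the low dose and 85.0 and 45.3 at the high dose. Its half-lives were 1.69 h ± 0.058 and 1.79 h ± 0.12. Exosc4 and Mphosph6 kept 20.2% ± 3.7 and 20.1% ± 3.0 at the low dose, lower than any other exosome member.

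Exosc10, the nuclear exonuclease attached to the exosome, gave 656 and 897.6 at 0 h. It gave 513 and 593 at 2 h and 360.0 and 359 at 4 h at the low dose, and 665.9 and 600.8 at 2 h and 375 and 404.6 at 4 h at the high dose. The 4 h arrays lay below all earlier arrays, and at the high dose experiment 1 was still at its 0 h level at 2 h. The log2 change was -1.06 (limma adjusted p = 1.2e-05) at the low dose and -0.95 (adjusted p = 4.3e-05) at the high dose.

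The other ring and cap subunits covered a wide range. Exosc7 fell to 40.2% ± 4.0 at the low dose and 31.5% ± 6.9 at the high dose, and Exosc1 to 42% ± 2.5 and 41.6% ± 6.2. Exosc9 kept 92.7% ± 11 at 2 h at the low dose and then 45.5% ± 4.3 at 4 h, and at the high dose 92.6% ± 2.0 and 54.1% ± 0.024, so that its loss lay in the second interval. Exosc5 passed at the low dose at 84.4% ± 4.2 left (log2 -0.24, limma adjusted p = 0.043), but not at the high dose at 88.3% ± 2.8. The call was lost when any 1 of 7 arrays was left out, and its direction turned under scaling to a shared 75th percentile, where Exosc5 was called higher in both doses (log2 0.20 and 0.25, adjusted p = 0.047 and 0.017).

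Exosc8 and Exosc2 did not pass in either dose. Exosc8 kept 87% ± 20 at the low and 95% ± 6.1 at the high dose, and Exosc2, which binds RNA at the cap of the ring, stood at 125% ± 3.2 and 126% ± 17. Transcripts of subunits that sit in 1 complex thus ranged at 4 h at the low dose from 20.2% (Exosc4) to 125% (Exosc2).

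In nonsense-mediated decay 1 member was called lower and 2 higher in each dose, among 4 tested. Over all genes, 43.6% were lower and 13.7% higher at the low dose, and 40.6% and 9.11% at the high dose. Smg8, a regulator of the Smg1 kinase, gave 166 and 102.7 at 0 h. It gave 34.6 and 35.1 at 2 h and 43.6 and 46.5 at 4 h at the low dose, and 45.4 and 42.9 at 2 h and 47.6 and 38.7 at 4 h at the high dose. All later arrays lay below both 0 h arrays and below the dimmest array median, and at the low dose 27.5% ± 9.4 was left at 2 h and 35.8% ± 13 at 4 h. Smg8 passed the filter on mean intensity through its 0 h arrays alone, so its call in both doses, with log2 changes of -1.27 and -1.32, is given as a description and supports nothing.

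Smg5, an adaptor that links phosphorylated Upf1 to decay enzymes, gave 284 and 324 at 0 h. It gave 338 and 369.5 at 2 h and 405 and 467 at 4 h at the low dose, and 290.0 and 367 at 2 h and 404 and 417 at 4 h at the high dose. Every 4 h array was above every 0 h array, although transcription was blocked, and the source of the higher signal was not tested. The rise was 0.50 on the log2 scale at the low dose (SE 0.13, limma adjusted p = 0.0053) and 0.42 at the high dose (adjusted p = 0.018), or 143% ± 1.4 and 135.5% ± 9.2 of 0 h. The call at the high dose was lost without either 0 h array (adjusted p = 0.065 and 0.07) or the high-dose 4 h array of experiment 1 (0.34, adjusted p = 0.18).

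Upf1, the helicase at the centre of nonsense-mediated decay, was dim, at 16.7 and 40.7 at 0 h. It gave 21.2 and 98.3 at 2 h and 39.9 and 114.0 at 4 h at the low dose, and 42.9 and 106.4 at 2 h and 27.8 and 93.9 at 4 h at the high dose. The later arrays were above the 0 h array of their own experiment in all cases, but the groups overlapped across experiments, and all 5 arrays of experiment 1 were below 50. Upf1 passed the filter on mean intensity through the later arrays of experiment 2 alone, so its call in both doses, with log2 changes of 0.98 and 0.69, is likewise a description. Its call at the high dose was lost without experiment 2 at 0 h (0.43) or at 4 h (0.61).

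Upf2, the partner that activates Upf1, gave 548.6 and 276 at 0 h. It gave 575 and 344.5 at 2 h and 590.4 and 419 at 4 h at the low dose, and 577.6 and 313 at 2 h and 599 and 398 at 4 h at the high dose. Each later array was above the 0 h array of its experiment, yet neither dose passed (limma adjusted p = 0.055 and 0.085), with 130% ± 31 and 127% ± 25 of 0 h. It passed at the low dose when any 1 of 4 arrays was left out, and at the high dose without the 0 h array of experiment 1.

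How far a member is read as flat or rising rests on the scale of the arrays. The paper states that the usual assumption of a constant mRNA total does not apply after transcriptional blockade. It selected dChip because its values best kept the expected higher signal before decay. The scalings compared here bring all arrays to a shared level or distribution, so they can remove a general fall. A call lost or turned under them thus depends on that assumption, and which scale is right was not tested. Under scaling to a shared 75th percentile, the median log2 change of all genes was 0.21 at the low and 0.25 at the high dose instead of -0.21 and -0.16, and the members called higher numbered 12 and 10, beside 45.1% and 46.6% of all genes. With quantile normalization the all-gene medians were 0.09 and 0.11, and 8 and 6 members were called higher, beside 37.1% and 37% of all genes. These counts move with the scale of all genes and are no trait of the members. Relative to the median of all genes, the members' median at the low dose was -0.02 as deposited and -0.04 with the 75th percentile, and at the high dose -0.18 and -0.17. Of the 15 members that fell at the low dose, 12 also fell with the 75th percentile (28.4% of all genes) and 13 with quantile normalization (31.2%), and at the high dose 12 with each (25.8% and 28.3%).

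Half-lives, fitted through 0 h in each experiment, had a median of 3.08 h at the low dose over the 15 members that fell there, and 3.16 h at the high dose. Each takes a single rate over both intervals. For Cnot4 and Dcp1a, with most of their loss in the first interval, it summarizes the course and is not the time of a measured loss. Half-lives are relative to the scale too. With the 75th percentile Cnot4 stood at 1.42 h ± 0.17 at the low dose, Exosc4 at 2.11 h ± 0.12 and Mphosph6 at 2.14 h ± 0.20, while Edc4 went from 5.35 h to 51.7 h ± 63. The 5 shortest half-lives at the low dose thus stayed between 1.42 h and 2.14 h under this choice, and Exosc5 had none, since its signal did not decline on that scale.

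**Figure D2:**
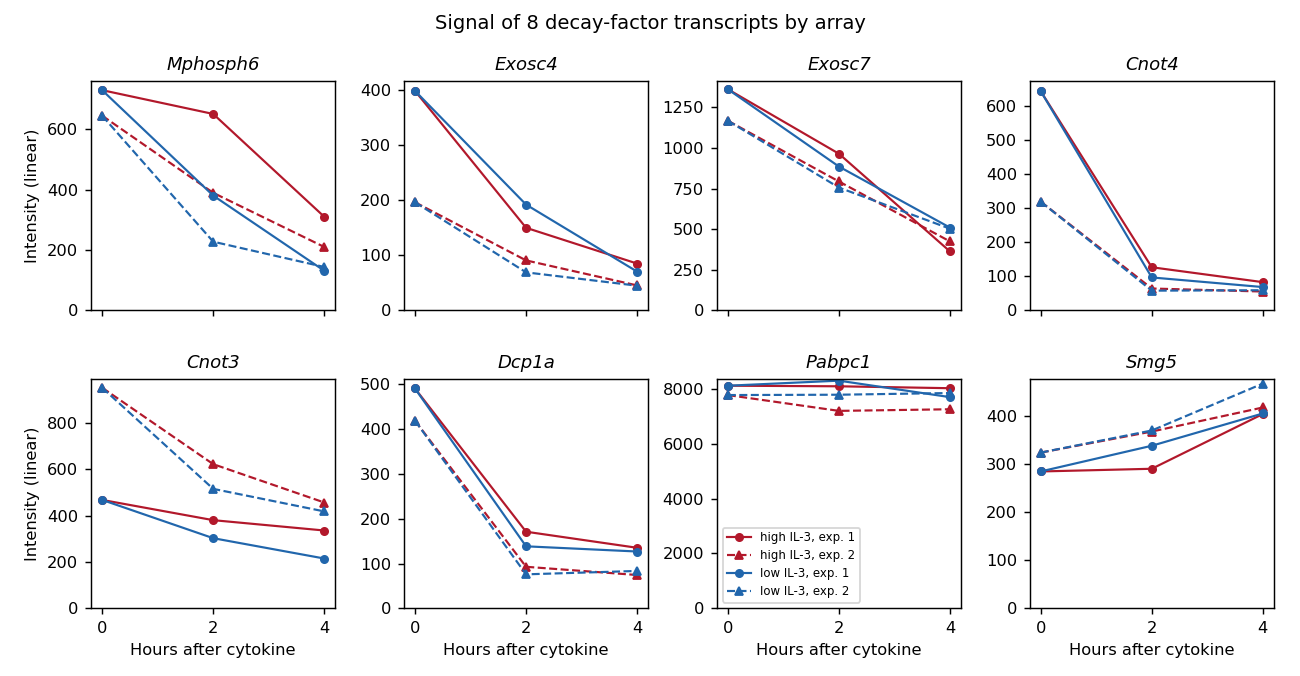
Intensity on a linear axis against hours after cytokine addition for 8 members chosen to show the range of courses; red is high IL-3, blue is low IL-3, circles with solid lines are experiment 1 and triangles with dashed lines experiment 2, 1 array per point, with both doses sharing the 0 h array. Cnot4 and Dcp1a lose most signal by 2 h, Exosc7 declines through 4 h, Pabpc1 stays between 7190.0 and 8290, Smg5 ends above its 0 h value, and the Mphosph6 curves separate by dose.

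The second comparison asked whether the dose of IL-3 changed these levels, with 2 h and 4 h averaged. Among the 30 members, 1 was higher at the high dose and 0 were lower (limma adjusted p under 0.05), or 3.33% higher against 0.869% of all genes, and 0.0147% of all genes were lower. At an unadjusted p under 0.05 there were 3 of the 30 members, Mphosph6, Cnot3 and Cnot6l, beside 584 of all 6792 genes. These shares are near each other. The members' median log2 difference was 0.03 beside -0.01 over all genes.

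The called member was Mphosph6. Its 0 h arrays were 729.8 and 645. At the low dose it gave 380.4 and 228 at 2 h and 131 and 144 at 4 h, and at the high dose 651 and 389.5 at 2 h and 310.1 and 210 at 4 h. The high IL-3 array was above the low IL-3 array in all 4 pairs of the same experiment and time, and at 4 h the 2 doses did not overlap. At 2 h 74.8% ± 20 was left at the high dose and 43.7% ± 12 at the low dose, and at 4 h 37.5% ± 7.0 and 20.1% ± 3.0.

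The log2 difference for Mphosph6 was 0.78 (SE 0.13, limma adjusted p = 0.0094, range over the alternatives 0.0031 to 1). It kept its size but lost the call with no filter on dim probe sets (adjusted p = 0.077), without the block for the experiment (1) and without the variance trend (0.11), and fell to 0.62 (adjusted p = 0.15) without the low-dose 4 h array of experiment 1. The half-life was 1.71 h ± 0.011 at the low and 3.16 h ± 0.90 at the high dose. Mphosph6 fell in both doses, with log2 changes of -2.20 and -1.37 (limma adjusted p = 6.4e-08 and 1.3e-05).

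Cnot3 had the next smallest p. Its log2 difference was 0.33 (SE 0.10, limma adjusted p = 0.25), higher at the high dose in 4 of 4 pairs, with a 95% interval of 0.10 to 0.55 before adjustment. Cnot6l had the opposite sign, -0.29 (SE 0.10, adjusted p = 0.32), with an interval of -0.50 to -0.08. Neither passed over all genes. Exosc10 (0.15, adjusted p = 0.77) and Cnot8 were also higher in all 4 pairs, as were 751 of the 6792 genes, and Smg5 (-0.09, adjusted p = 0.87) was lower in all 4.

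In the other roles the leading differences did not pass. Edc4 stood at 0.19 (SE 0.11, limma adjusted p = 0.73) and Dcps at 0.13 (SE 0.11, adjusted p = 0.84), which became -0.01 (adjusted p = 0.99) without the high-dose 2 h array of experiment 1. Pabpc1 gave -0.05 (SE 0.03, adjusted p = 0.77) with an interval of -0.12 to 0.02, and Pabpn1 -0.08 (SE 0.05, adjusted p = 0.68) with an interval of -0.18 to 0.01. Smg8 gave 0.10 (SE 0.15, adjusted p = 0.93). Apart from Mphosph6, the 95% intervals of the members ran at their widest from -0.50 to 0.55, so that differences inside these bounds remain possible.

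A change of the dose difference between 2 h and 4 h was tested as an interaction. It passed for 0 members (limma, smallest adjusted p = 0.86), with 3 at an unadjusted p under 0.05: Dcps, Exosc7 and Upf1. The number of all genes at that p was not counted, so these 3 are not read as a trait of the members.

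**Figure D3:**
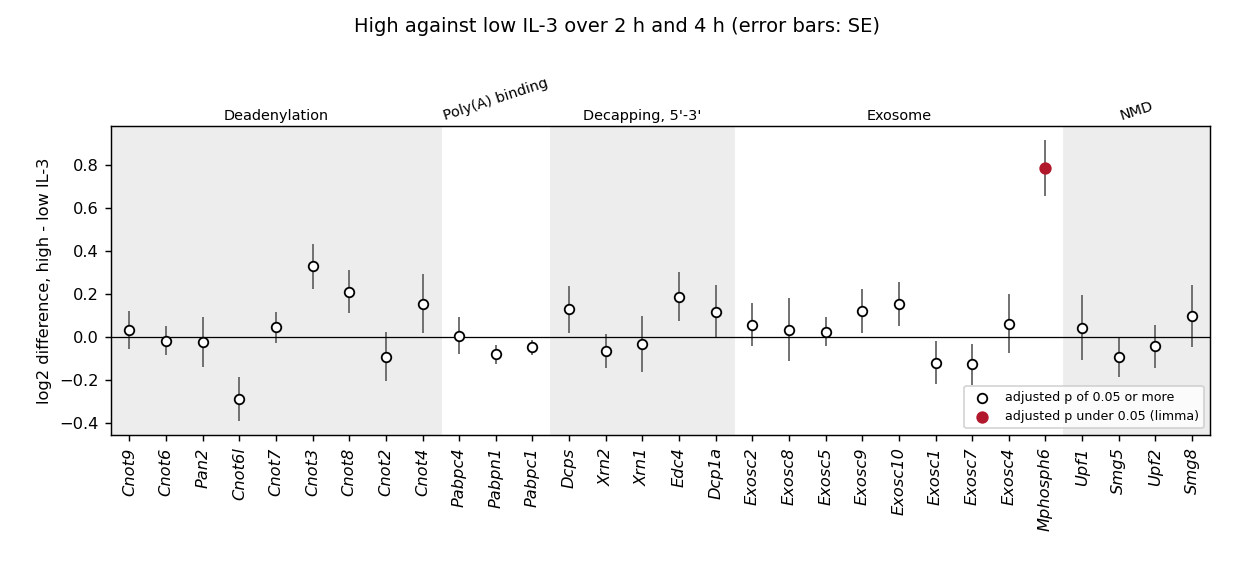
Log2 difference of high minus low IL-3, averaged over 2 h and 4 h, for the 30 tested members by role, with the SE of the limma fit as error bars; the filled point passed the adjusted threshold. Mphosph6 at 0.78 stands apart from the other 29 members, which lie between -0.29 and 0.33.

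The study ranked probe sets by a g_score, the signed area between the high and low IL-3 curves over a variability that depends on the 0 h signal. With that score rebuilt from the deposited values, 6 of the 32 member genes (18.8%) had a probe set among the top 1000, against 6.22% of all genes. In probe sets these were 8 of 65, beside 4.41% of all probe sets. They were Cnot3, Cnot8, Edc4, Exosc10, Exosc4 and Mphosph6, and Mphosph6 had the highest score among them, 3.01, at rank 15 of all probe sets. Exosc4 entered through a dimmer probe set, at rank 786, while its brightest, the one described above, was at rank 4556. The count was 3 without experiment 1 (Cnot3, Cnot8 and Mphosph6; 6.45% of all genes) and 9 without experiment 2 (6.41%). It was 4 where ratios above 1 were kept (6.33%): Cnot3, Dcps, Mphosph6 and Xrn2. There Cnot8, Edc4, Exosc10 and Exosc4 dropped out. Under scaling to a shared 75th percentile it was also 4 (6.41%): Cnot3, Cnot8, Exosc4 and Mphosph6. Only Cnot3 and Mphosph6 were in the top 1000 under every choice. The gene shares given here are over all 12394 named genes, of which 6792 entered the tests, whereas 30 of the 32 members did. Members also had more probe sets per gene, 65 for 32 genes against 20393 for 12394. The 2 shares are therefore of unlike sets, and the share among tested genes was not computed. The score and the limma comparison use the same arrays and are not independent.

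A gene's probe sets can report different parts or isoforms of its transcripts. Of the 11 members with more than 1 tested probe set, 6 had the same call at the low dose on all of them: Cnot2, Cnot4, Cnot8, Exosc10, Exosc4 and Pabpc4. Those of Cnot2, Exosc10 and Pabpc4 include probe sets of the _x_at class, which can also match other transcripts. A shared call did not mean a shared size: the probe sets of Cnot4 ran from -2.60 to -0.60. The others disagreed in their calls. Cnot7 fell on its brightest probe set (log2 -0.59, limma adjusted p = 0.00012), rose on the second (0.37, adjusted p = 0.013) and did not pass on the third (-0.13). At the high dose the same probe sets gave -0.66, 0.43 and -0.09. The brightest is of the class (_s_at) that can match transcripts of more than 1 gene.

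Cnot6l ranged from -0.16 on the brightest probe set, which did not pass, to -0.98 and -1.59 on others that fell. Pabpn1 did not pass on 3 probe sets and rose on the dimmest (0.77, limma adjusted p = 0.0017). Cnot6 ranged from -0.03 to 0.35 and passed only on its dimmest probe set (adjusted p = 0.042).

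Xrn2 fell on 1 of 3 (-0.41, limma adjusted p = 0.0072). Its dimmest probe set gave 908.7 on the high-dose 2 h array of experiment 2 and between 5.97 and 22 on the other 9 arrays, so that its mean passed the filter through a single array. Cnot7, Cnot6l, Cnot6, Pabpn1 and Xrn2 can therefore be described only per probe set.

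**Figure D4:**
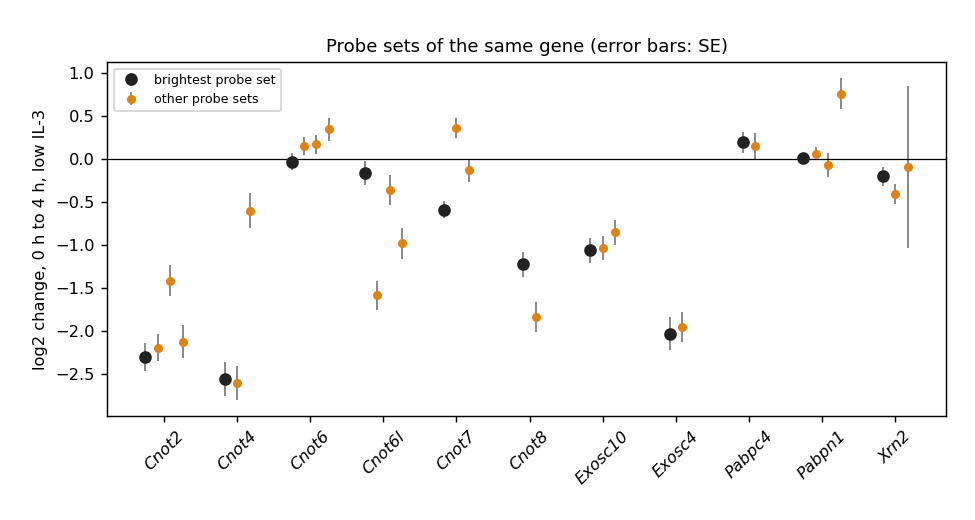
Log2 change from 0 h to 4 h at the low dose for every tested probe set of the 11 members with more than 1, with SE as error bars; black is the brightest probe set of the gene and orange the others. Probe sets of Exosc10 and Exosc4 lie close together, those of Cnot7 lie on both sides of 0, and those of Cnot6l run from -0.16 to -1.59.

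A list of other genes of the same routes, which the symbol rule leaves out, was read beside the members. It held 60 genes for deadenylation, decapping, the exosome and nonsense-mediated decay, of which 45 were measured and 41 tested. At the low dose, 26 of the 41 fell and 3 rose, beside 43.6% and 13.7% of all genes, and at the high dose 26 fell and 1 rose, beside 40.6% and 9.11%. The median log2 changes were -0.69 and -0.61, and -0.21 and -0.16 over all genes. By route at the low dose, 9 of 12 genes fell for deadenylation and 2 of 8 for decapping. For the exosome 6 of 10 fell, and for nonsense-mediated decay 9 of 11. Called higher were 0, 2, 1 and 0, in the same order. The nonsense-mediated decay genes of this list had a median of -0.57, unlike the 0.42 of the 4 members. The dose comparison called 0 of the 41 in either direction (limma), with 2 at an unadjusted p under 0.05, beside 584 of all 6792 genes.

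Among the falling genes of this list, the smallest p belonged to Noct, Tob2, Pde12 and Pnrc1. Noct, a protein of the Ccr4 nuclease family, kept 6.94% ± 0.98 of its 0 h signal at 4 h at the low dose and 8.30% ± 1.8 at the high dose. Tob2, which recruits the Ccr4-Not deadenylases to transcripts, kept 12.7% ± 1.8 and 13.9% ± 3.8. Pde12, a phosphodiesterase that acts on adenylate tails, kept 7.22% ± 0.31 and 6.06% ± 2.3, and Pnrc1, a paralog of the decapping adaptor Pnrc2, kept 5.80% ± 2.1 and 5.35% ± 3.5. Half-lives at the low dose were 0.943 h for Noct, 0.968 h for Pde12, 0.898 h for Pnrc1 and 1.21 h for Tob2. At 4 h at the low dose, Noct gave 57.9 and 58.2, Pde12 69.9 and 56.4, Pnrc1 157.8 and 58.5, and Tob2 99.6 and 67.6. Apart from Pnrc1 and Tob2 in experiment 1, these approach the array medians. The percentages and half-lives are thus limited by the dim range. Tob2 was read on a probe set of the _x_at class.

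The rises in the list were Ddx6, the helicase that joins Ccr4-Not to decapping, at 185% ± 17 of 0 h at the low and 169% ± 7.0 at the high dose (log2 0.88 and 0.75), and, at the low dose alone by its own test, Lsm4 (128% ± 13), a subunit of the ring that binds deadenylated ends, and Skic2 (136% ± 11), the helicase that feeds the cytoplasmic exosome. Whether Lsm4 and Skic2 differ between doses was tested by the dose comparison, which neither passed (limma adjusted p = 0.92 and 0.68). The rises of Ddx6, Lsm4 and Skic2, too, are of array signal after a block of transcription, and their source was not tested.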

How the data were processed

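The authors deposited linear array intensity values, 1 table of 22690 probe sets, that they had normalized in dChip (default settings, all 10 mouse arrays at once); the sources used here do not give its version. Gene names came from the platform annotation (20393 name 1 gene, 691 several, 1606 none). The members and lists were chosen with earlier results of these data known.

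The 11856 probe sets averaging at least 50 were fitted on the log2(intensity + 16) scale with limma 3.58.1 (R 4.3.3), using 5 groups, a block for the experiment, and a variance trend in eBayes. P-values are two-sided, Benjamini-Hochberg adjusted over all probe sets, with a threshold of 0.05. Background shares use 1 probe set per gene, the brightest (6792 genes). The block follows the divided cultures; deviations from the group means correlated at 0.762 to 0.887 between groups. For half-lives, the logarithm of the ratio to 0 h was fitted against time through the origin in each experiment. Only 2 arrays per group limit the precision.

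Values of all arrays are printed for members called by dose, the 3 largest falls and rises, the 2 smallest p for dose per role, and Mphosph6, Xrn1, Upf1 and Pabpc1. From the other decay genes, up to 4 called per direction and comparison were named. Exosc4 intensities were added after its values were seen. The steps were tested on simulated data. Alternatives were pseudocounts of 1 and 64, no filter or one at 200, scaling to a shared 75th percentile, quantile normalization, no block, no trend, the dimmest tested probe set, updated symbols, and each array left out. Python 3.11.15, numpy 2.4.6, pandas 2.3.3 and matplotlib 3.10.9 were also used.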

Additional observations from a re-analysis of the deposited data

How the results depend on the processing

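The counts of falling members (15 in each dose) stayed within 1.5 times under all alternatives run, and 11 of the 15 in low IL-3 and 10 of the 15 in high IL-3 kept the call under every alternative in which they were tested, the exchange of probe sets aside; Cnot3, Cnot7 and Edc4 were lost under at least 1 in both doses, Exosc5 in low IL-3, and Cnot6l and Exosc9 in high IL-3. The counts of rising members (2 in each dose) were less stable: in low IL-3 1 with a filter at 200, 12 with a common 75th percentile, 8 with quantile normalization and 4 with the dimmest tested probe set of each gene, and in high IL-3 1, 10 and 6 under the filter at 200, the 75th percentile and quantile normalization. Without the replicate block for the experiment, 0 members rose in either dose and 0 differed by dose. The cause was not tested. The 1 member higher in high IL-3 became 0 with no filter, without the block, without the variance trend and, among the single arrays left out, without the low-dose 4 h array of experiment 1 (range 0 to 1). Leaving out single arrays gave 0 to 2 rising members in high IL-3, with 0 without the 0 h array of experiment 2 and 1 without either 4 h array of high IL-3, and 3 to 9 genes in the top 1000 by g_score when 1 experiment was left out. Among the called changes and named dose differences, those that turned their sign were Cnot6l in high IL-3 (0.00) and Exosc5 in low IL-3 (0.20) with a common 75th percentile, Exosc5 with quantile normalization (0.01), and the dose difference of Dcps without the high-dose 2 h array of experiment 1 (-0.01; -0.01 to 0.27 over all single arrays left out). Members that had not passed with a negative value and were called higher with a common 75th percentile were Cnot6 and Pabpc1 in both doses, Dcps and Xrn2 in low IL-3, and Exosc5 and Pabpn1 in high IL-3; with quantile normalization these were Cnot6 and Dcps in low IL-3. Leaving out Smg8 and Upf1, an alternative chosen after seeing the data, left 1 rising member in each dose. Scaling to a common 75th percentile and quantile normalization rest on a constant mRNA total, which the paper holds not to apply after transcriptional blockade. Updating symbols changed no member. With 2 arrays per group, small dose differences are below what the spread allows to be seen.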
